A study of Mus musculus with 25 samples.

Results

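Fatty acid binding proteins are small cytosolic proteins that hold a long-chain fatty acid or another lipid in a barrel-shaped pocket and carry it to mitochondria, peroxisomes, lipid droplets or, for some members, nuclear receptors. Fabp1 is the abundant form of hepatocytes, Fabp2 the form of the intestinal epithelium, Fabp4 the form of adipocytes, macrophages and capillary endothelium, Fabp5 the epidermal form that macrophages and endothelium also make, and Fabp7 the form of glia, which Kupffer cells of the mouse liver make as well. The 5 genes Fabp1, Fabp2, Fabp4, Fabp5 and Fabp7 were examined here out of 24537 genes in the count table. They were chosen by name, with the low Fabp5 level on high-fat diet already known, so that every difference between diets in these genes is a description and was given no test. All 5 passed the filter on low counts with 14133 genes in all, and each had at least 23 reads in every library.

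RNA was measured in livers of male C57BL6/J mice at 24 months. Every animal carried 1 of 2 knockouts, Rosa26KO or p53KO, and received the control diet or the high-fat diet (HFD). There were 6 libraries of Control_Rosa26KO, 6 of HFD_Rosa26KO, 6 of Control_p53KO and 7 of HFD_p53KO. The sources used here do not give how the knockouts were made, which tissues they reach, what the diets contained or how long they were fed. The labels do not say that libraries came from separate animals, so p-values measure the spread between these libraries.

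Total counts per library ran from 16324283 to 21501281. Trp53, the gene named by the p53KO label, had a mean of 36.8 ± 4.80 CPM (counts scaled to library size, mean ± SD) on control diet and 37.1 ± 4.56 CPM on HFD in Rosa26KO livers, and of 24.1 ± 6.89 and 26.05 ± 4.47 CPM in p53KO livers. Averaged over both diets it was lower in p53KO by edgeR's quasi-likelihood test, with a log2 fold change of -0.56 (SE 0.10), but the adjusted p of 0.21 did not pass the threshold of 0.05. The genotypes overlapped, at 31.6 to 43.7 against 17.2 to 35.6 CPM on control diet and 30.6 to 43.8 against 19.6 to 31.05 CPM on HFD, and which part of Trp53 was removed is not known here. The 10 hepatocyte markers were all present, with a summed level between 58039 and 170968 CPM per library. Libraries Control_p53KO 1, Control_p53KO 3 and HFD_Rosa26KO 6 stood apart, with neutrophil markers that summed to 591, 75.8 and 380 CPM against group medians of 12.1 and 19.5, and results that rest on them are given without them. Library names form 3 runs of consecutive numbers, which hold replicates 1 and 2, 3 and 4, and 5 to 7 of each group. These are called runs of names here, since nothing says what they stand for.

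Fabp1 dominated the family. Per kilobase of coding transcript, its mean over the 25 libraries was 3457 CPM, against 68.0 for Fabp2, 60.9 for Fabp5, 23.9 for Fabp4 and 5.48 for Fabp7. The order below Fabp1 differed by diet. In Control_Rosa26KO the mean CPM per kilobase was 126 for Fabp5, 50.3 for Fabp2, 12.3 for Fabp4 and 4.34 for Fabp7, whereas in HFD_Rosa26KO it was 90.5 for Fabp2, 41.3 for Fabp4, 22.03 for Fabp5 and 6.19 for Fabp7. The p53KO groups had the same orders, with 90.3 for Fabp5 and 43.9 for Fabp2 in Control_p53KO, and 84.5 for Fabp2, 24.3 for Fabp4 and 13.3 for Fabp5 in HFD_p53KO. Fabp5 thus stood next to Fabp1 on control diet and behind Fabp2 and Fabp4 on HFD. Neighbours in these orders overlapped between libraries in part, and their levels were not tested against each other.

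The other 5 rows of the family were close to 0. Fabp6, the ileal bile acid binding protein, and Fabp9, the form of the testis, had no count in any library, where 3 counts would have been 0.14 to 0.184 CPM. Fabp3, the form of heart and muscle, had 43 reads over all 25 libraries, Fabp12 had 38, and Pmp2, the form of peripheral myelin, had 2. None of these passed the filter.

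**Figure D1:**
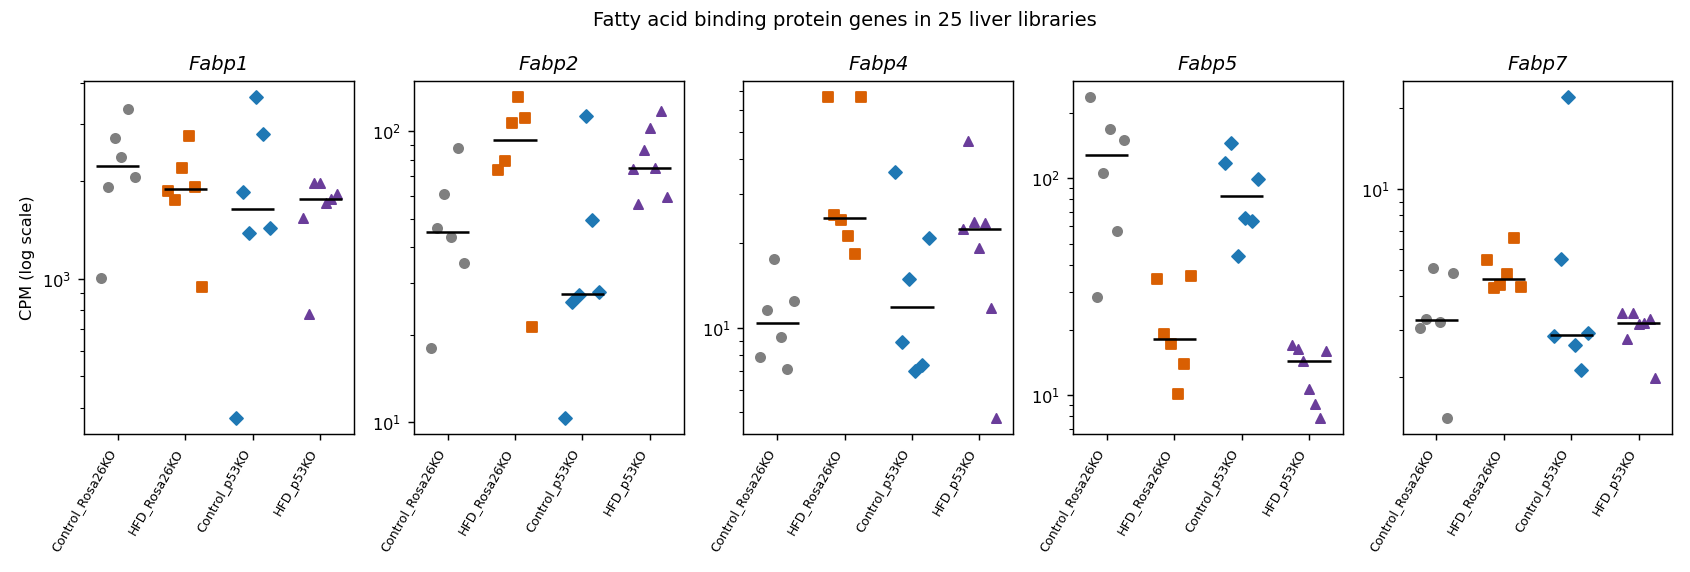
CPM on a log scale of the 5 genes in each of the 25 libraries, with 1 point per library, grouped by diet and genotype, and a bar at the group median. Fabp5 runs from 28.4 to 236 CPM on control diet and from 7.84 to 35.6 on HFD, while Fabp1 holds medians between 1641 and 2217 CPM in all 4 groups.

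Fabp5 was low on HFD in both genotypes. In Rosa26KO livers on control diet it had a lowest value of 28.4, a median of 127 and a highest value of 236 CPM, against 10.2, 18.3 and 35.6 CPM on HFD. These ranges met only through Control_Rosa26KO 2, the library at 28.4, since the other 5 control libraries lay at 57.3 CPM or above. In p53KO livers the values were 43.7, 82.6 and 145 CPM on control diet and 7.84, 14.5 and 17.1 CPM on HFD. Here all 7 HFD libraries lay below all 6 control libraries, as they did for 0.41% of the 14133 genes.

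The fitted log2 difference, HFD minus control diet, was -2.51 (SE 0.42) in Rosa26KO, which is 5.71-fold lower, and -2.77 (SE 0.40) in p53KO, which is 6.80-fold lower. Among the 14133 genes these ranked 11 and 26 from the lowest value. Leaving out each library in turn moved the Rosa26KO value between -2.72 and -2.23 and the p53KO value between -2.91 and -2.58. Within the runs of names the log2 difference of the means lay between -3.31 and -2.06 in all 6 genotype and run combinations, and the HFD libraries lay wholly below their controls in 5 of the 6. They did not in the first run, which holds Control_Rosa26KO 2. In bulk tissue, fewer cells of a type and less RNA per cell cannot be told apart.

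The summed levels of macrophage and endothelial markers overlapped between diets in both genotypes. The 12 macrophage markers, led by Cd5l and Lyz2, summed to 267 to 1053 CPM on control diet and 795 to 1378 on HFD in Rosa26KO, and to 538 to 3537 and 390 to 1216 CPM in p53KO. The 11 endothelial markers, led by Stab2 and Stab1, summed to 231 to 399, 295 to 598, 267 to 481 and 141 to 412 CPM in the same order. None of the 12 and none of the 11 passed edgeR's threshold in either diet comparison. The median log2 differences were 0.37 for macrophage and 0.30 for endothelial markers in Rosa26KO, and -0.36 and -0.39 in p53KO. In the fit without the 3 neutrophil-high libraries, the macrophage marker Trem2 rose and the endothelial marker Clec4g fell in p53KO. The endothelial marker Vwf rose in Rosa26KO. Trem2, Clec4g and Vwf are named after their values were seen. The part of either cell type in the Fabp5 level was not tested.

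Fabp5 carries a limit that its paralogs do not. Its coding sequence has 5 near-identical copies elsewhere in the annotation, Fabp5l2, Gm13998, Gm14328, Gm6100 and Gm6166, which match it at 90% or more over at least 200 bases, and none of them has a row in the table. The sources used here do not say how reads that match several places were handled, so the Fabp5 count may miss or include reads of these copies. No such copy was found for the other 4 genes. The closest pairs among the 5 are Fabp4 and Fabp7, with 61.7% of aligned coding bases identical, and Fabp4 and Fabp5, with 60.8%.

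Genotype was the contrast that the choice of genes did not use. Fabp5 was lower in p53KO by a fitted log2 of -0.48 (SE 0.39) on control diet and -0.73 (SE 0.39) on HFD, with edgeR adjusted p-values of 0.648 and 0.9998. Averaged over both diets the difference was -0.60 (SE 0.28), with an unadjusted p of 0.039 and an adjusted p of 0.966 by the same test. The value on control diet was -0.19 without Control_Rosa26KO 1. Exact two-sided permutation of genotype gave p = 0.606 on control diet and p = 0.0781 on HFD. The interaction, taken as the diet difference in p53KO less the diet difference in Rosa26KO, was -0.25, with a 95% interval of -1.39 to 0.89 and an edgeR adjusted p of 0.886. With 1 library left out it ran from -0.55 without Control_Rosa26KO 1 to -0.046 without Control_Rosa26KO 2.

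Fabp4, which lies on the same chromosome as Fabp5, moved the other way in Rosa26KO. Its lowest, median and highest values were 7.13, 10.4 and 17.6 CPM in Control_Rosa26KO and 18.4, 24.7 and 66.6 CPM in HFD_Rosa26KO. All 6 HFD libraries lay above all 6 control libraries, as for 1.2% of genes tested. Libraries HFD_Rosa26KO 1 and 6 were highest, both at 66.6 CPM, and the other 4 lay between 18.4 and 25.2 CPM. The same 2 libraries had the highest sums of the 11 endothelial markers in their group, 539.6 and 598 CPM against 294.8 to 330.1 CPM in the other 4. Of these markers Vwf, the clotting factor of endothelium, had means of 8.52 CPM on control diet and 29.7 CPM on HFD in Rosa26KO and did not pass (edgeR adjusted p = 0.0526), and it is named after its values were seen. Vwf passed in that comparison when the 3 neutrophil-high libraries were left out, at a log2 difference of 1.24 (edgeR adjusted p = 0.0133). The part of endothelium in the Fabp4 level was not tested.

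In p53KO livers the Fabp4 groups overlapped. The values were 6.99, 11.9 and 36.0 CPM on control diet and 4.75, 22.5 and 46.3 CPM on HFD. Control_p53KO 1 was the highest of its group and HFD_p53KO 7 the lowest of all 25 libraries. The fitted log2 difference was 1.75 (SE 0.47), or 3.37-fold higher, in Rosa26KO and 0.46 (SE 0.44), or 1.38-fold higher, in p53KO. The p53KO value moved to 0.88 without Control_p53KO 1, to 0.16 without HFD_p53KO 2, to 0.30 without Control_p53KO 4 and to 0.31 without Control_p53KO 5. Without the 3 neutrophil-high libraries the log2 difference was 1.499 in Rosa26KO and 0.97 in p53KO, so the genotypes lay closer together.

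The interaction of Fabp4 was -1.29 (95% interval -2.61 to 0.02), with an unadjusted p of 0.0541 and an edgeR adjusted p of 0.573. It was -0.53 without the 3 neutrophil-high libraries and -0.87 without Control_p53KO 1 alone. A difference between genotypes in the Fabp4 diet effect was therefore not shown. Of 14133 genes 0, or 0%, passed the interaction threshold in edgeR, with 1221 at an unadjusted p under 0.05, and DESeq2 called 5 genes. For no member was the adjusted p of the interaction under 0.4165 in any of the other fits, or under 0.3486 with 1 library left out.

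Of the adipocyte markers, those that define the cell type were at or near 0 beside Fabp4, and others were not. Lep, which encodes leptin, had no count in any library, and the group means of Adipoq, which encodes adiponectin, were at most 0.025 CPM. Lipe, a lipase that many tissues make, had the highest mean of the 6 markers in every group, and the 6 together summed to 16.6 to 43.7 CPM over all libraries. Cfd, the adipocyte protease adipsin, had means of 1.93 CPM on control diet and 10.4 CPM on HFD in Rosa26KO, and of 2.35 and 6.70 CPM in p53KO, and did not pass in either diet comparison. The part of adipocytes in the Fabp4 level was not tested.

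The level of Fabp5 relative to Fabp4 can be read within each library, where length and scaling cancel between samples. The CPM of Fabp5 divided by that of Fabp4 was 2.45 to 30.03 on control diet and 0.48 to 0.762 on HFD in Rosa26KO, and 2.93 to 16.3 and 0.354 to 3.38 in p53KO. Only HFD_p53KO 7, the library with the lowest Fabp4, reached the range of the controls. The ratio contains the Fabp5 diet difference, which was known when the genes were chosen. In p53KO the fitted log2 difference was -2.77 for Fabp5 and 0.46 for Fabp4, whose groups overlapped. The Fabp5 gene lies at chr3:10012548-10016607 on the plus strand of GRCm38 and Fabp4 at chr3:10204088-10208576 on the minus strand, 187480 bases apart, with Pmp2 and Fabp9 among the genes between them. Within 500 kb on either side of the cluster, 8 further genes were tested, Impa1 and Slc10a5 among them, and none passed in either diet comparison.

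**Figure D2:**
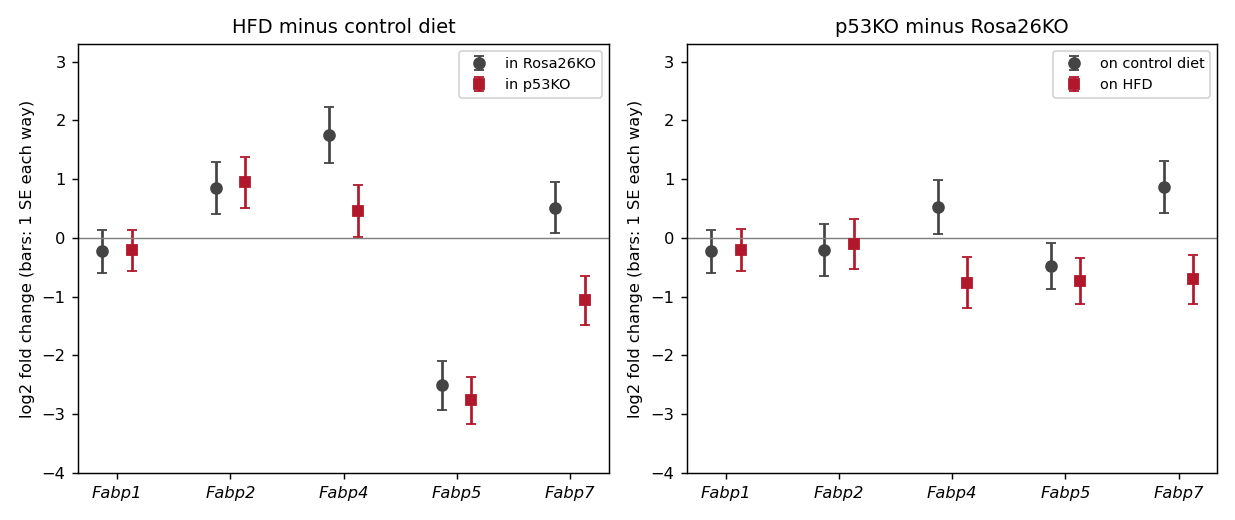
Fitted log2 fold changes of the 5 genes with bars of 1 SE each way, for HFD minus control diet within each genotype (left) and for p53KO minus Rosa26KO on each diet (right). Fabp5 lies at -2.51 and -2.77 on the left, and no gene passes the adjusted threshold on the right.

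Fabp1 and Fabp2, the hepatocyte and intestinal forms, varied widely between livers of the same group, with pooled SDs of 0.72 and 0.84 on the log2 scale. Fabp1 lies at chr6:71199827-71205023 and Fabp2 at chr3:122895072-122899506, both on the plus strand of GRCm38. The bases before their annotated starts are shown, from RefSeq on GRCm38.p6 at chr6:71199629-71199826 and chr3:122894822-122895071. The part of these bases in the levels was not tested. Capitals mark a DR1 element, the direct repeat bound by PPAR and RXR or by HNF4A.
Fabp1: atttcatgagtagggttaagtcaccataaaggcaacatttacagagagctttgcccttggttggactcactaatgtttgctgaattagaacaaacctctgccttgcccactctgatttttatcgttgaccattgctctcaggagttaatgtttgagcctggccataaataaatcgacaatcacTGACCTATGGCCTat
Fabp2: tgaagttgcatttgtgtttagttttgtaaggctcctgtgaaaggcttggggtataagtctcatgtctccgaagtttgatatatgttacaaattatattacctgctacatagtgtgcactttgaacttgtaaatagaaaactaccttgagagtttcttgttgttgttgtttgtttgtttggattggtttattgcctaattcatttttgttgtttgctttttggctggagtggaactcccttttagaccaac

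The DR1 element was searched as AGGNCA repeated after 1 base, on both strands, and the match in Fabp1 is on the minus strand, from -15 to -3 relative to the gene's start. Of 32851 promoter windows of the same 198 bases, 0.259% hold it. No match to these letters of DR1, to the E-box CACGTG or to the D-box TTANGTAA was found in the 250 bases of Fabp2. In the 198 bases of Fabp1 no match apart from DR1 was found. Looser forms of these elements were not searched, so their absence is not shown. Of the 5 genes, 3 matched the promoter table, and Fabp4 and Fabp5 did not. A match describes letters and shows no binding.

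Fabp1 had a lowest value of 1006, a median of 2217 and a highest value of 3318 CPM in Control_Rosa26KO and 944, 1893 and 2751 CPM in HFD_Rosa26KO. In p53KO it had 371, 1641 and 3620 CPM on control diet and 779, 1761 and 1971 CPM on HFD. All 4 groups overlapped. The fitted log2 difference between diets was -0.23 (SE 0.36) in Rosa26KO and -0.21 (SE 0.35) in p53KO, each smaller than its SE. With 1 library left out the p53KO value ran from -0.43 without Control_p53KO 1 to 0.077 without Control_p53KO 4, and it was -0.56 without the 3 neutrophil-high libraries. The Rosa26KO value ran from -0.38 without Control_Rosa26KO 1 to -0.080 without Control_Rosa26KO 5, and it was -0.091 without the 3.

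Fabp2 had higher medians on HFD in both genotypes. Its lowest, median and highest values in Rosa26KO were 17.9, 45.0 and 87.5 CPM on control diet and 21.3, 93.1 and 131 CPM on HFD. In p53KO they were 10.3, 27.6 and 113 CPM on control diet and 56.3, 74.7 and 117 CPM on HFD. In Rosa26KO the groups overlapped, and 3 of the 6 HFD libraries lay above the highest control. In p53KO they overlapped through Control_p53KO 4, the highest on control diet at 113 CPM. The fitted log2 difference was 0.85 (SE 0.44), or 1.80-fold, in Rosa26KO and 0.95 (SE 0.43), or 1.93-fold, in p53KO. It became 1.53 in p53KO without Control_p53KO 4 and 0.59 without the 3 neutrophil-high libraries.

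Intestinal markers were low beside Fabp2. In HFD_Rosa26KO 1 the brush border genes Alpi and Sis had 3.002 and 0.518 CPM, the highest of any library, while Sis was at 0 in the other libraries. Fabp2 in that library was 73.6 CPM, below the median of its group. The 8 enterocyte markers summed to 6.5 to 17.1 CPM over all libraries, mostly from Lgals4, and their part in the Fabp2 level was not tested.

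Within groups Fabp1 and Fabp2 were high and low in the same livers. The correlation of their log2 CPM, taken as deviations from group means over 25 libraries, was r = 0.88 with a permutation p of 1e-05, which is the smallest that 100000 permutations can give, and an adjusted p of 0.0001 over 10 pairs of the 5 genes. Spearman's rho was 0.79, with a permutation p of 4e-05 and an adjusted p of 0.0004. Without the 2 libraries farthest from the median of Fabp1, which were Control_p53KO 1 and Control_Rosa26KO 1, r was 0.85, and within the 3 runs of names it was 0.90, 0.98 and 0.88. On control diet it was 0.96 in Rosa26KO and 0.93 in p53KO, and on HFD 0.97 in Rosa26KO and 0.60 in p53KO. All values come from the same libraries, and shares of one total are not independent. So high an r was not particular to this pair. As deviations from group means, the gene ranked 6 in likeness had r = 0.93 with Fabp1 and 0.92 with Fabp2.

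Fabp4 and Fabp5 went against this pair. Fabp1 and Fabp4 had r = -0.61 with a permutation p of 0.00146 and an adjusted p of 0.0073 (rho = -0.56, permutation p = 0.00869, adjusted 0.029). It was -0.64 without the 2 farthest libraries, -0.44 without the 3 neutrophil-high libraries and -0.56, -0.63 and -0.64 within the runs. By group it was 0.21 in Control_Rosa26KO, where the sign turned, and -0.68 in HFD_Rosa26KO, -0.94 in Control_p53KO and -0.59 in HFD_p53KO. Fabp2 and Fabp5 had r = -0.59 with a permutation p of 0.00419 and an adjusted p of 0.014 (rho = -0.71, permutation p = 0.00027, adjusted 0.00135). It was -0.60 without the 2 farthest libraries, -0.62 without the 3 neutrophil-high libraries and between -0.80 and -0.47 in each of the 4 groups. It was -0.48, -0.19 and -0.89 within the runs, so that it was weak in the second run.

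For Fabp2 and Fabp4, r was -0.50 with a permutation p of 0.0117 and an adjusted p of 0.0292 (rho = -0.53, permutation p = 0.0126, adjusted 0.0316), but r was -0.38 without the 2 farthest libraries and -0.28 without the 3 neutrophil-high libraries. It was 0.14 in Control_Rosa26KO and -0.088 in HFD_p53KO. For Fabp1 and Fabp5, r was -0.42 with a permutation p of 0.0424 and an adjusted p of 0.0849 (rho = -0.38, permutation p = 0.0868). Fabp4 and Fabp5 had r = 0.27 and a permutation p of 0.144. The 4 pairs with Fabp7 had r between -0.12 and 0.20, and none passed.

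In each group the liver with the least Fabp1 and Fabp2 was also the one with the most acute phase RNA. The summed level of 10 acute phase genes, such as Saa1 and Hp, whose products the liver secretes in inflammation, was highest in Control_Rosa26KO 1 (61287 CPM, group median 12826), HFD_Rosa26KO 6 (27273, median 12613), Control_p53KO 1 (76221, median 16028) and HFD_p53KO 2 (37939, median 12595). Below these 4 libraries the orders did not match throughout. HFD_p53KO 7 had the second highest acute phase sum of its group, 29079 CPM, with Fabp1 at 1828 CPM, above the group median of 1761. The list was chosen after the values of Fabp1 and Fabp2 were seen, so this is a description and was given no test. Of the 10 genes 0 passed edgeR's threshold in either diet comparison.

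**Figure D3:**
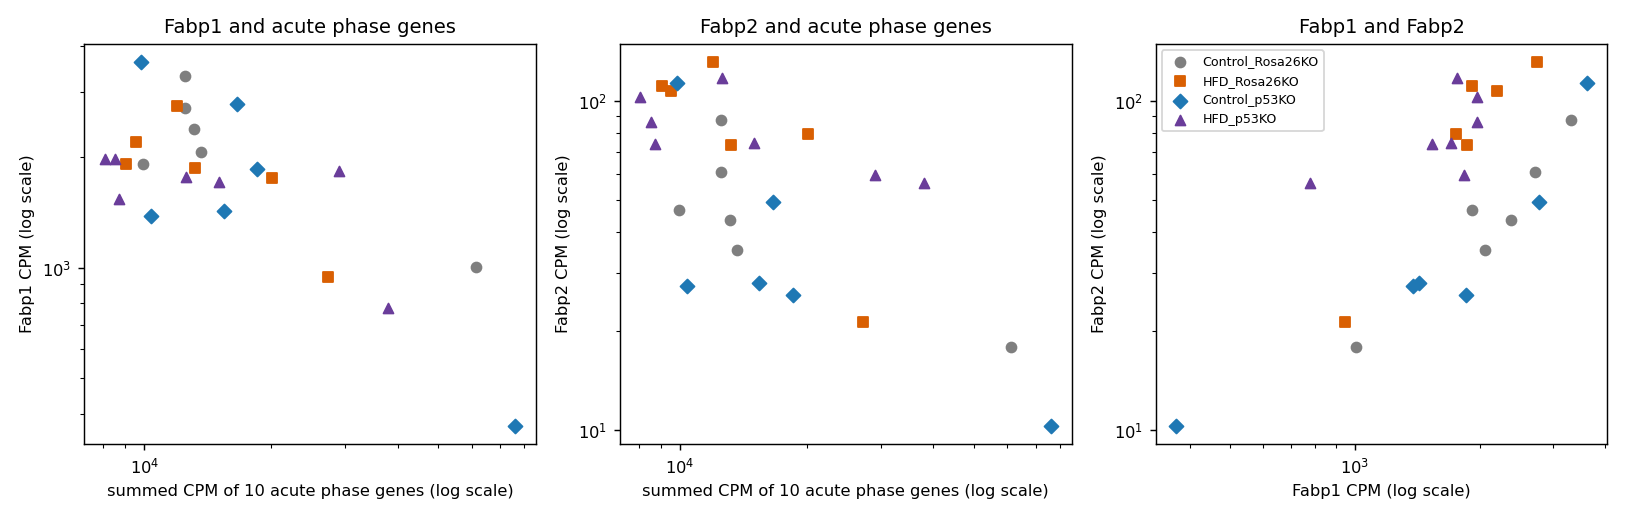
Fabp1 (left) and Fabp2 (middle) against the summed CPM of 10 acute phase genes, and Fabp2 against Fabp1 (right), with 1 point per library and log scales on all axes. The library of each group with the most acute phase RNA, from 27273 to 76221 CPM, has the least Fabp1 and Fabp2 of that group.

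Fabp7, the form of glia and of Kupffer cells, stayed below 7 CPM in every library but 1. Its lowest, median and highest values in Rosa26KO were 1.402, 3.25 and 5.11 CPM on control diet and 4.28, 4.62 and 6.57 CPM on HFD. In p53KO they were 2.11, 2.87 and 22.05 CPM on control diet and 1.98, 3.17 and 3.47 CPM on HFD. The value of 22.05 was Control_p53KO 3, and the next highest of that group was 5.49. The fitted log2 difference between diets was 0.51 (SE 0.44) in Rosa26KO and -1.06 (SE 0.42) in p53KO, and the latter was -0.067 without Control_p53KO 3. The interaction of -1.57 (SE 0.60, edgeR adjusted p = 0.56) was likewise -0.58 without that library.

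On HFD, Fabp7 was lower in every p53KO library than in every Rosa26KO library. All 7 values of HFD_p53KO, up to 3.47 CPM, lay below all 6 of HFD_Rosa26KO, from 4.28 CPM. In all, 10 of 14133 genes, or 0.0708%, separated in this direction. Random labels would put 6 and 7 libraries apart in either direction with a probability of 0.00117. The share of genes in this 1 direction is therefore near the chance rate and does not mark out Fabp7. Groups that are apart as a whole must be apart within each run of names, so the runs add no evidence here. The values were up to 3.47 against 4.28 or more in the first run and up to 3.47 against 4.42 or more in the second. In the third they were up to 3.297 against 4.32 or more. An exact two-sided permutation test of genotype gave p = 0.00117, the smallest that 6 against 7 libraries allow and the only value that groups apart can give. It is 1 of 10 such tests, 5 genes on 2 diets, was added after the separation was seen and is not adjusted. The other 9 gave exact p-values from 0.0781 to 0.896.

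By edgeR the same difference of -0.71 (SE 0.42) had an unadjusted p of 0.104 and an adjusted p of 0.9998, and no alternative brought its adjusted p under 0.4545. Fabp7 thus passed in no fit across all genes. On control diet the difference was 0.87 (SE 0.44, edgeR adjusted p = 0.506) and -0.13 without Control_p53KO 3.

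Fabp7 was highest in the library with the most Clec4f. Clec4f, a lectin of Kupffer cells, had 733 CPM in Control_p53KO 3, the highest of all libraries, and that library's 12 macrophage markers summed to 3537 CPM against a group median of 747. Not all of these markers followed. Timd4 reached at most 10.2 CPM in Control_p53KO against 18.8 in HFD_Rosa26KO, and Marco at most 20.6 against 43.0 CPM. Both are named after their values were seen. On HFD, Clec4f lay between 117 and 237 CPM in Rosa26KO and between 62.0 and 122 CPM in p53KO, with an edgeR log2 difference of -0.94 (SE 0.42) and an adjusted p of 0.9998. The macrophage sums on HFD, given above, overlapped between genotypes. Among glial markers, Sox10 and S100b had group means of at most 0.046 CPM. The part of Kupffer cell number in the Fabp7 level was not tested.

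Over all 5 genes, none passed edgeR's threshold between genotypes. On control diet 0% of 14133 genes passed, with 1408 at an unadjusted p under 0.05 and 1 gene called by DESeq2. On HFD 0% passed, with 509 at an unadjusted p under 0.05 and 1 gene called by DESeq2, and for the average of both diets 0% passed, with 573 unadjusted, 7 by DESeq2 and 2 by limma voom. The fitted genotype differences of Fabp1 were -0.23 (95% interval -0.98 to 0.52) on control diet and -0.21 (-0.93 to 0.52) on HFD. Those of Fabp2 were -0.20 (-1.11 to 0.72) and -0.098 (-0.97 to 0.78), and those of Fabp4 were 0.53 (-0.43 to 1.49) and -0.76 (-1.67 to 0.14). The Fabp4 value on control diet was 0.10 without Control_p53KO 1 and 0.0082 without the 3 neutrophil-high libraries, and that on HFD was -0.52 without the 3. The control diet values of Fabp1 and Fabp2 turned to 0.12 and 0.16 without the 3. A p that misses the threshold does not show equal levels.

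Each gene was also set beside the genes whose pattern was most like it, by Pearson's r of log2 CPM over 25 libraries among 12117 genes with a mean of at least 1 CPM. Libraries share depth and group, and the genes were picked for a high r, so the values are descriptions. For Fabp5, Mr1, which encodes a presenter of microbial metabolites to T cells, and Atp6v1g1, which encodes a subunit of the vacuolar proton pump, were among the 3 most alike, both at r = 0.88 (rho = 0.84 for both, and 0.84 without the 2 farthest libraries). Mr1 ran from 7.93 to 21.4 CPM on control diet and from 7.27 to 9.57 on HFD in Rosa26KO, and from 9.41 to 18.6 and from 5.97 to 10.6 CPM in p53KO. Its levels thus spanned a narrower range than those of Fabp5. Within groups Zbtb24, a zinc finger gene, and Abca1, the cholesterol efflux transporter, were the closest, both at r = 0.81.

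Fabp2 was most like Decr1 (r = 0.98), Eci1 (r = 0.96) and Aldh3a2 (r = 0.96), which encode enzymes for the oxidation of unsaturated fatty acids and of fatty aldehydes, and as deviations from group means these were again the first 3. Fabp1 was most like Hyi, Car3 and Ces1e, with r from 0.93 to 0.94, and within groups like Car3, Hyi and Inmt, with r from 0.94 to 0.95. Fabp4 was most like Rgs5, which encodes a G protein regulator known from pericytes, with r = 0.92, and then like Rgs4 (r = 0.91) and Ctla2a (r = 0.89). Within groups Rgs5, Apold1 and Acer2 led, with r from 0.88 to 0.90. Fabp7 was most like Renbp (r = 0.89), Clec4f (r = 0.88) and Man2b1 (r = 0.86), but without the 2 farthest libraries these were 0.69, 0.68 and 0.58. Within groups Renbp, Snx8 and Clec4f led, with r from 0.87 to 0.89.

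**Figure D4:**
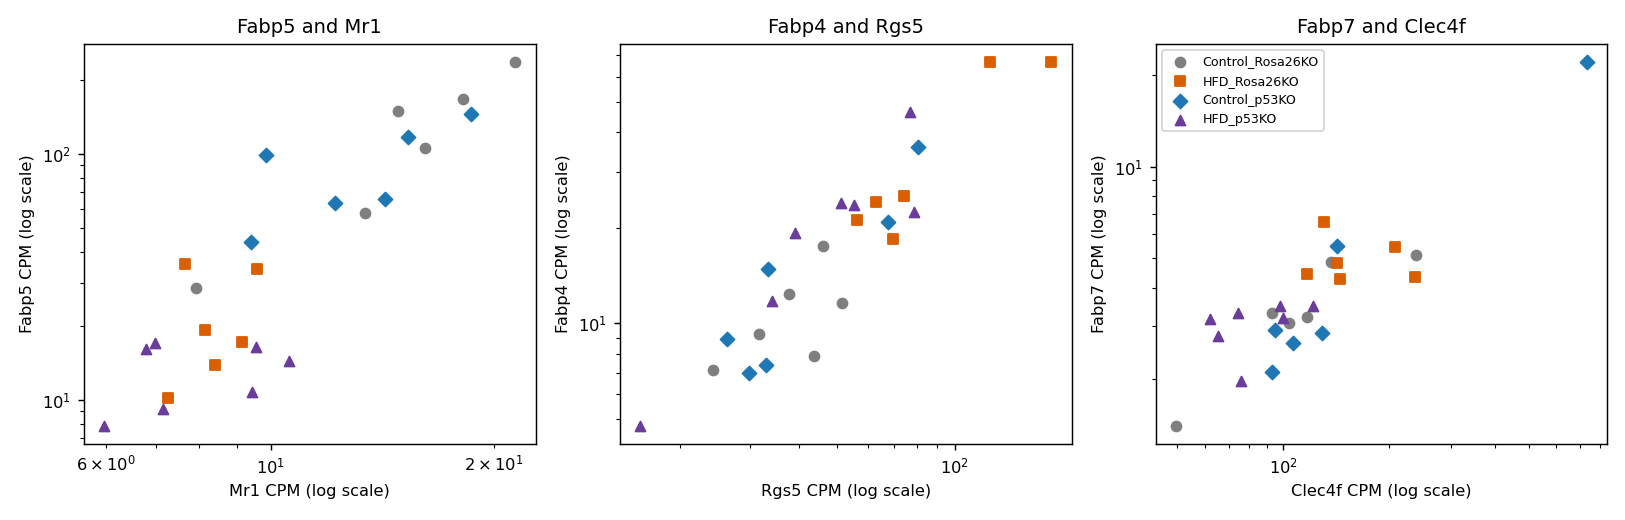
CPM on log scales of Fabp5 against Mr1, Fabp4 against Rgs5 and Fabp7 against Clec4f, with 1 point per library. Mr1 spans 5.97 to 21.4 CPM while Fabp5 spans 7.84 to 236, and the highest point of Fabp7 and Clec4f is the same library, Control_p53KO 3.

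The pathways around these proteins were set beside them for the diet comparisons, in which 213 of 14133 genes (1.51%) passed edgeR's threshold in Rosa26KO, 0.446% upward and 1.06% downward, and 405 (2.87%) in p53KO, 1.62% upward and 1.25% downward. Without the 3 neutrophil-high libraries 3.78% and 3.43% passed. The median log2 difference of all genes tested was 0.0033 in Rosa26KO and -0.024 in p53KO. PPARA, a nuclear receptor that fatty acids activate, drives Fabp1 and many oxidation genes. The 22 genes listed here were Ppara and targets mostly of oxidation. Of these, 19 in Rosa26KO and 21 in p53KO lay above 0, with median log2 differences of 0.31 and 0.50. Past the threshold 0 rose in Rosa26KO and 2 rose in p53KO. These were Cpt1a, which admits fatty acids to mitochondria, at 0.66 (SE 0.17, edgeR adjusted p = 0.0342), and Slc25a20, the carnitine carrier, at 0.70 (SE 0.19, adjusted p = 0.0454). Without the 3 neutrophil-high libraries the counts were 1 and 0.

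Of 14 genes of PPARG and the lipid droplet, 1 rose in Rosa26KO and 3 in p53KO, with medians of 0.31 and 0.58. Plin4, a droplet coat protein, rose by 2.46 (SE 0.33, edgeR adjusted p = 0.000897) and 2.17 (SE 0.32, adjusted p = 0.00139). In p53KO, Plin2, another droplet coat protein, rose by 0.97 (SE 0.22, adjusted p = 0.0177) and Pparg itself by 0.93 (SE 0.23, adjusted p = 0.028). Without the 3 neutrophil-high libraries both counts were 3.

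Lipogenic genes had mostly negative differences, as Fabp5 had. Of 16 targets or partners of SREBP1C and ChREBP, 14 in Rosa26KO and 12 in p53KO lay below 0, and 3 in Rosa26KO and 4 in p53KO fell past the threshold, with medians of -0.93 and -0.65. Acacb, which makes malonyl-CoA at mitochondria, had -1.399 (SE 0.32, edgeR adjusted p = 0.0257) and -1.29 (SE 0.30, adjusted p = 0.0228). Acly, which makes cytosolic acetyl-CoA, had -1.22 (SE 0.31, adjusted p = 0.0494) and -1.29 (SE 0.30, adjusted p = 0.0213). Mlxipl, which encodes ChREBP, passed in Rosa26KO at -0.97 (adjusted p = 0.0388), and the elongase Elovl6 and the lipase Pnpla3 passed in p53KO at -1.36 (adjusted p = 0.044) and -2.17 (adjusted p = 0.0472). Without the 3 neutrophil-high libraries 3 and 8 fell.

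Of 15 genes for uptake and activation of fatty acids, 0 passed in either genotype, with medians of -0.11 and -0.024. The most abundant, Slc27a2 and Slc27a5, had differences of 0.17 (SE 0.19) and -0.49 (SE 0.21) in Rosa26KO. Without the 3 neutrophil-high libraries 1 rose in Rosa26KO, the fatty acid receptor Cd36, and 1 fell in p53KO, the acyl-CoA synthetase Acsl5, both named after their values were seen. Of 17 circadian clock genes 0 passed, with medians of -0.0063 and 0.23. The 10 hepatocyte markers had medians of -0.43 and -0.61, all 10 below 0 in both, and Cps1, the first enzyme of the urea cycle, fell in p53KO at -1.03 (SE 0.26, edgeR adjusted p = 0.0351). Without the 3 neutrophil-high libraries 1 and 2 of the hepatocyte markers fell. The markers of adipocytes, neutrophils, enterocytes, bile duct cells and glia that were tested gave 0 calls in both comparisons, with and without those 3 libraries.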

How the data were processed

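Raw read counts per gene for 25 liver libraries were deposited by the authors as 1 table of 24537 symbols. Per the submitters' processing notes STAR and HOMER were used with the GRCm38 (mm10) build. The sources used here do not give versions, strand or the treatment of multiply matching reads. Groups were taken from the labels.

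Genes were kept by filterByExpr (minimum count 10, minimum total 15) and scaled by TMM. A robust quasi-likelihood model with 1 mean per group was fitted to all libraries in edgeR 4.0.16 (R 4.3.3), with two-sided p-values and Benjamini-Hochberg adjustment over 14133 genes at a threshold of 0.05. CPM are counts scaled to the TMM library size, given as mean ± SD. Within-group values are deviations of log2 CPM (prior count 2) from group means, with 100000 permutations within groups.

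Alternatives were RLE scaling, no filter, DESeq2 1.42.0, limma voom (limma 3.58.1) with sample weights, no robust dispersion, a term for replicate number or for runs of library names, fits to the 2 groups compared alone, and leaving out each library. Added after the data were seen were the fit without 3 neutrophil-high libraries, the exact genotype tests and the acute phase list. The members, lists and rule for naming genes were chosen with earlier results of these data known. Named genes are the members, up to 4 list genes of smallest p where a list has a call in a diet comparison and otherwise at most 2 of highest CPM, and the 3 genes most alike by each measure, with model names passed over. Some eligible genes are not reported here. Positions and coding lengths are from GENCODE M21 on GRCm38. Copies were searched with BLAST 2.17.0. The procedure was tested on simulated data. Python 3.11.15, scipy 1.17.1 and matplotlib 3.10.9 were used.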

Additional observations from a re-analysis of the deposited data

Results flagged for a closer look

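In 20 groups of values, 5 genes in 4 groups, 2 libraries stood apart by their gap to the nearest other library, where chance alone marks about 1 group in 20. Fabp7 was 22.05 CPM in Control_p53KO 3, and the gap was 0.831 of the group's range. That library also had the highest Clec4f, at 733 CPM. Fabp1 was 778.9 CPM in HFD_p53KO 2, with a gap of 0.632 of the range. That library had the highest summed acute phase RNA of its group, at 37939 CPM. Neither accompanying value was tested as a source of the difference.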

How the results depend on the processing

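The Fabp5 difference between diets kept its direction under every alternative run, from -2.77 to -2.51 in Rosa26KO and from -2.87 to -2.70 in p53KO over the other fits, and from -2.72 to -2.23 and from -2.91 to -2.58 with 1 library left out. Fabp7 had the fewest reads of the 5 genes, 2216 in all. The count of genes past the threshold for HFD against control diet in Rosa26KO, 213 as reported, was 538 without the 3 neutrophil-high libraries, 653 with the compared groups only, 615 by DESeq2, 3038 by voom, 442 with a term for runs of names and 93 to 509 with 1 library left out. In p53KO, 405 as reported, it was 121 with the compared groups only, 907 by DESeq2, 2189 by voom, 633 with the term for runs and 173 to 760 with 1 library left out. The interaction and the genotype comparisons, 0 as reported, gave 5 for the interaction, 1 on control diet, 1 on HFD and 7 on average by DESeq2, and on average 2 by voom, 1 without the 3 libraries and 0 to 1 with 1 library left out. The causes were not tested.

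The replicate block raised the counts to 549 in Rosa26KO and 785 in p53KO and gave 1 for the genotype average. Of same-numbered pairs from different groups, 17 of 36 had a correlation over 0.1 (mean 0.116, lowest -0.398). Of pairs with other numbers, 60 of 198 did (mean -0.022, lowest -0.592). Same-numbered libraries were thus somewhat more alike on average, for a reason that was not tested. The labels do not say that numbers pair the samples, and HFD_p53KO 7 has no partner. Under the block the Fabp5 differences were -2.51 and -2.77.

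Small differences changed sign. Without the 3 libraries the interactions of Fabp1 and Fabp2 became -0.47 and -0.46, the genotype differences on control diet became 0.12 for Fabp1, 0.16 for Fabp2 and -0.092 for Fabp7, and the average for Fabp7 became -0.42. The interaction of Fabp1 was -0.0034 with the term for runs. The replicate block gave 0.091 for Fabp2 on HFD and -0.0599 for the Fabp7 average, for which voom gave -0.28. With 1 library left out, the interaction ran from -0.20 to 0.31 for Fabp1 and from -0.15 to 0.69 for Fabp2. The genotype difference on control diet ran from -0.79 to 0.054 for Fabp2 and from -0.13 to 1.04 for Fabp7, that on HFD from -0.30 to 0.054 for Fabp2, and the average from -0.33 to 0.0065 for Fabp4 and from -0.42 to 0.16 for Fabp7. None of these passed the threshold.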
